A study of Schizosaccharomyces pombe with 16 samples.

Results

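MBF is the transcription factor complex that switches on G1/S genes in the fission yeast Schizosaccharomyces pombe, and Zfs1 is an RNA-binding protein of the same yeast whose bound RNAs were sequenced here. The transcripts described are those of 10 genes out of the 7018 transcripts in the deposited tables, chosen by name. They are the complex (cdc10, res1 and res2), its activator subunit (rep2), its co-repressors (yox1 and nrm1) and 4 of its target genes (cdc18, cdt1, cdc22 and suc22). All 10 had values in every library and all 10 passed the filter on low values in every comparison.

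MBF binds a short element, the MCB (MluI cell cycle box), upstream of its target genes. Cdc10 is the common subunit, and Res1 and Res2 are its partners that contact DNA. Rep2 is a transactivating subunit that works with Res2, and Nrm1 and Yox1 are repressors that bind MBF once S phase is under way and are themselves products of MBF target genes. The targets prepare the cell for S phase. Cdc18 and Cdt1 load the MCM helicase onto replication origins, and Cdc22 and Suc22 are the large and small subunits of ribonucleotide reductase, the enzyme that makes the building blocks of DNA.

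For RIP-Seq, the sequencing of RNA that comes down with an immunoprecipitated protein, extracts were made from strain FR1401, in which the zfs1 gene carries the TAP affinity tag (zfs1-TAP::kanMX6, mating type h−), and from strain FR1424 as a mock control, in which leu1 is deleted by a gfp-TAP fusion driven by the nmt1 promoter (ura4-D18, h+). Each strain gave 3 experiments, and in each of them the IP library was paired with a library of the total RNA of its extract, the input. RNA-Seq compared the wild type PN4 with the zfs1Δ mutant FR434 in 2 experiments each. All cultures grew exponentially in the minimal medium EMM at 25 °C, so each library mixed cells of all cell cycle stages, and more cells of a stage and more RNA per cell cannot be told apart. Only these 4 strains were compared. The study calls the Zfs1 IP and RNA-Seq experiments biological repeats, and the sources used here do not say this of the mock IP, where p-values measure the spread between its libraries.

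The values are normalized read counts, and the number of reads sequenced is not known from them. They summed to between 8042875 and 72878501 per RIP-Seq library and between 42446075 and 47945097 per RNA-Seq library. Ribosomal RNA made up 72.1% of the Zfs1-TAP input of experiment 1 and 34.7% of the GFP-TAP input of experiment 1, against at most 5.87% in the other RIP-Seq libraries. The median log2 IP/input ratio of all tested transcripts in the Zfs1 experiments 1, 2 and 3 was −1.50, 0.14 and 0.10, so a ratio is also given below less the median of its experiment. In the RNA-Seq, wild type libraries held 10098 and 10660 counts of zfs1 itself, and mutant libraries 6168 and 5866. It was lower in both mutant libraries but not absent. The value covers the untranslated parts of the transcript too, and where in it the remaining counts lay was not tested. leu1 was at 430 to 478 counts in the GFP-TAP inputs and at 5356 to 11183 in the Zfs1-TAP inputs.

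A pair of sequence elements bears on these transcripts, the AU-rich nonamer that Zfs1 and its relatives bind in RNA and the MCB upstream of MBF targets. The nonamer TTATTTATT was searched on the sense strand of each annotated transcript in RefSeq (assembly ASM294v3). It occurred in 2 of the 10 transcripts, against 11.3% of 5104 protein-coding transcripts. The matches are shown with 10 bases on each side, 5′ to 3′, with the nonamer in capitals, because these are the only ones among the 10.
rep2, bases 443 to 471 of the transcript, chrII:1718145-1718173, + strand: ttggatttaaTTATTTATTttgctcgaac
cdc22, bases 464 to 492 of the transcript, chrI:4227749-4227777, + strand: tagagcgttcTTATTTATTgcgtatcgac
The rep2 match lay in the 5′ UTR, which is annotated at 521 bases, and the cdc22 match lay in the coding sequence. No transcript of the 10 had the nonamer in its 3′ UTR. The shorter core ATTTA occurred in all 10 transcripts, as in 94.2% of protein-coding transcripts, with 9 copies each in res1 and res2 and 1 copy in yox1, for which no 3′ UTR is annotated. In res2, 7 of the 9 copies were in the 3′ UTR, and in nrm1 4 of 7 were. Copy numbers were not set against transcript length.

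The MCB hexamer ACGCGT, which reads the same on both strands, was searched in the 250 bases before each annotated transcript start. It occurred before 3 of the 10 genes (yox1, cdt1 and cdc22), against 2.65% of 5103 protein-coding genes. The stretches of 30 bases that hold it are shown because they place the element of the targets, counted back from the transcript start, with the hexamer in capitals.
yox1, −69 to −40, chrII:1648163-1648192, + strand: tgatatagcgcgACGCGTcgttaaacgtga
cdt1, −89 to −60, chrII:477303-477332, + strand: gatagctacgcgACGCGTcaacaaacgcga
cdc22, −69 to −40, chrI:4226901-4226930, + strand: tagcgtgACGCGTctgaACGCGTttttcat
The cdc22 stretch held 2 copies. Within 1000 bases, the hexamer was also found before cdc10, at −407, and suc22, at −575, which made 5 of 10 genes against 6.70% of all. The pentamer ACGCG on either strand, which is part of the hexamer and was added after the hexamer's positions were seen, was found within 250 bases of 5 genes (yox1, nrm1, cdc18, cdt1 and cdc22), against 9.48% of all, with 6 copies before cdc18. None of res1, res2 and rep2 had these letters within 1000 bases of its annotated start. cdc22 alone of the 10 had both a nonamer and a hexamer within 250 bases.

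**Figure D1:**
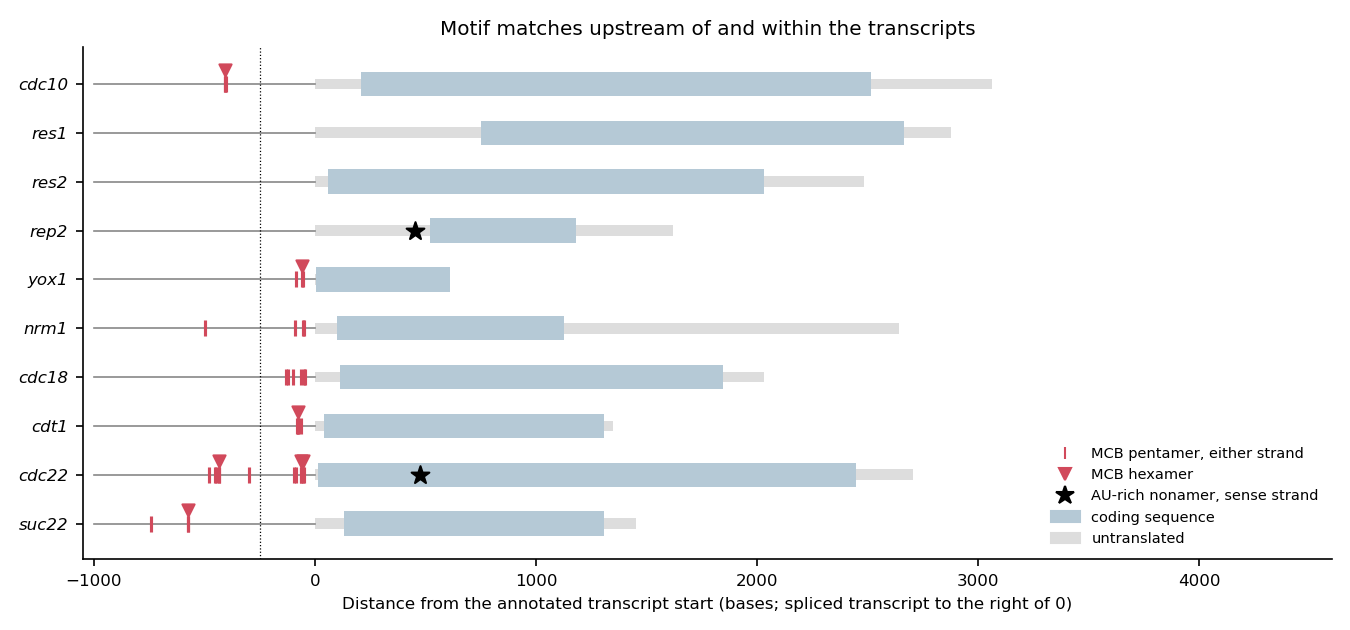
Positions of the motif matches in bases from the annotated transcript start (x axis) for each of the 10 genes (y axis), with the spliced transcript to the right of 0. Triangles mark the MCB hexamer, red ticks the MCB pentamer on either strand, stars the AU-rich nonamer, and the dotted line the 250 base window. The nonamer is seen only in rep2 and cdc22, and hexamers within the window only before yox1, cdt1 and cdc22.

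Before any comparison, the levels of the 10 transcripts differed widely. Each library was divided by transcript length and scaled to a sum of 1000000 over transcripts other than rRNA. On this scale the ribonucleotide reductase transcripts were the most abundant of the 10 in the wild type, with 456 and 470 for suc22 and 373 and 377 for cdc22. The activator rep2 followed at 67.8 and 69.7, then yox1 at 62.5 and 63.0, res1 at 38.9 and 39.6 and nrm1 at 38.3 in one library and 38.4 in the other. At the low end were cdt1 (33.8 and 35.4), cdc18 (25.7 and 27.3), cdc10 (25.8 in both) and res2 (21.2 and 21.8). The ranges of cdc18 and cdc10 overlapped, and those of all other neighbours in this order did not. suc22 and cdc22 were also the top of the 10 in the inputs of both tagged strains, at mean shares of 381 and 296 in the Zfs1-TAP input and 390 and 296 in the GFP-TAP input. Divided by coding length instead, rep2 stood at a mean of 130 in the wild type and nrm1, whose annotated 3′ UTR is 1513 bases long, at 76.0, above yox1 at 48.7.

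The comparison of Zfs1 IP with input asks which of the 10 transcripts came down with Zfs1. The transcripts split. The complex (cdc10, res1 and res2), rep2, cdc18 and cdc22 had ratios above the median of all transcripts in all 3 experiments, as had yox1 by 0.21 to 0.44, and nrm1, cdt1 and suc22 had ratios below it in all 3. In the test on the counts as deposited, only res2 was called higher (1 of 10, against 9.60% of 5929 transcripts) and none was called lower (against 10.6%), at an adjusted p under 0.05 from limma on log2(normalized count + 1). At an unadjusted p under 0.05, 3 were higher (res2, rep2 and cdc22) and 1 lower (suc22), but the share of all transcripts at this threshold is not given here, so these counts cannot be judged. With every library centred on its median, 6 of the 10 were called higher (against 28.4%) and 3 lower (against 35.3%). The same 6 and the same 3 were called when experiment 1 was left out. The median log2 ratio of the 10 was 0.96, against −0.44 over all transcripts, and 7 of the 10 were above the latter.

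Among the subunits of MBF, res2 (SPAC22F3.09c, chrI:686535-689179) had 565, 283 and 270 normalized counts in the Zfs1-TAP inputs of experiments 1 to 3 and 1500, 2434 and 1519 in the IPs. Every IP was above every input. The log2 ratio was 2.33 ± 0.73 (SE, n = 3), or 5.03-fold (limma, adjusted p = 0.0120). Here and below, ± gives the SE of the limma fit, which draws partly on the spread of other transcripts. The SD over the 3 res2 experiments was 0.86, and the excess over the median of the experiment was 2.91, 2.96 and 2.39. Without experiment 2 the ratio was 1.95 (adjusted p = 0.661, limma) and without experiment 3 it was 2.25 (adjusted p = 0.834), and none of the 10 was called in either case. These fits called few transcripts of any kind. Of all transcripts, 0.169% were called higher and 0.455% lower without experiment 2, and 0.203% and 0.474% without experiment 3.

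cdc10 (SPBC336.12c, chrII:2760741-2763800) had 1197, 454 and 435 counts in the inputs and 1261, 1712 and 1742 in the IPs. All 3 IPs were higher than their inputs, though by little in experiment 1, where the input itself was high. The log2 ratio was 1.33 ± 0.74 (SE, limma, adjusted p = 0.190), and relative to the experiment medians it was 1.58, 1.77 and 1.90. The counts of res1 (SPBC725.16, chrII:1232586-1235587) were 1419, 496 and 520 in the inputs and 1035, 1733 and 1891 in the IPs, so that input and IP overlapped through experiment 1. Its log2 ratio of 1.07 ± 0.74 was not called (limma, adjusted p = 0.303), and the ratios less the medians were 1.05, 1.66 and 1.76. In the fit on centred libraries cdc10 (1.55, adjusted p = 0.000247) and res1 (1.29, adjusted p = 0.00110) were called higher.

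rep2 (SPBC2F12.11c, chrII:1717703-1719322), the activator, had 997, 512 and 495 counts in the inputs and 2000, 2501 and 2329 in the IPs. As for res2, no input reached any IP. The log2 ratio was 1.84 ± 0.75 (SE, n = 3, limma, adjusted p = 0.0626), just short of the threshold, and 2.06 on centred libraries (adjusted p = 9.26e-05). Its ratios less the medians were 2.50, 2.14 and 2.13.

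The co-repressors did not follow the complex. yox1 (SPBC21B10.13c, chrII:1648232-1648840) had 559, 227 and 239 counts in the inputs and 268, 317 and 298 in the IPs. Its log2 ratio of −0.09 ± 0.69 was not called (limma, adjusted p = 0.942) and took the opposite sign, 0.14, on centred libraries (adjusted p = 0.555). nrm1 (SPBC16A3.07c, chrII:4285944-4288583) had 1903, 717 and 713 counts in the inputs and 468, 491 and 394 in the IPs. Every nrm1 IP was below every input, with a log2 ratio of −1.14 ± 0.72 (limma, adjusted p = 0.251) and of −0.92 on centred libraries (adjusted p = 0.00318).

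The targets went different ways within each functional pair. cdc18 (SPBC14C8.07c, chrII:2215955-2217984) had 718, 423 and 437 counts in the inputs and 502, 1597 and 974 in the IPs, with the IP below its input in experiment 1 and above it in the others. Less the experiment medians, the cdc18 ratios were 0.99, 1.77 and 1.05. Its partner in licensing, cdt1 (SPBC428.18, chrII:477392-478738), had 481, 216 and 277 counts in the inputs and 96.8, 130 and 183 in the IPs. For cdt1 every IP was below every input. Neither was called on the counts as deposited (log2 0.85 ± 0.72, adjusted p = 0.410 for cdc18 and −1.21 ± 0.69, adjusted p = 0.202 for cdt1, limma), and on centred libraries cdc18 was called higher (1.08, adjusted p = 0.00283) and cdt1 lower (−0.98, adjusted p = 0.00593).

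For ribonucleotide reductase, cdc22 (SPAC1F7.05, chrI:4226970-4229989) had 11410, 4882 and 5291 counts in the inputs and 14681, 31720 and 24942 in the IPs. suc22 (SPBC25D12.04, chrII:3721623-3723072) had 8881, 3297 and 3284 counts in the inputs and 1483, 1642 and 1236 in the IPs. The large subunit's transcript was thus above all inputs in every IP and the small subunit's below all inputs in every IP. The log2 ratios were 1.77 ± 0.76 (adjusted p = 0.0777) for cdc22 and −1.67 ± 0.77 (adjusted p = 0.105) for suc22 by limma, and on centred libraries they were 1.99 (adjusted p = 0.000298) and −1.44 (adjusted p = 0.000376). In the mock IP, described below, cdc22 (1.77) and cdc18 (0.76) had log2 ratios like those in the Zfs1 IP, and suc22 (1.43) did not.

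**Figure D2:**
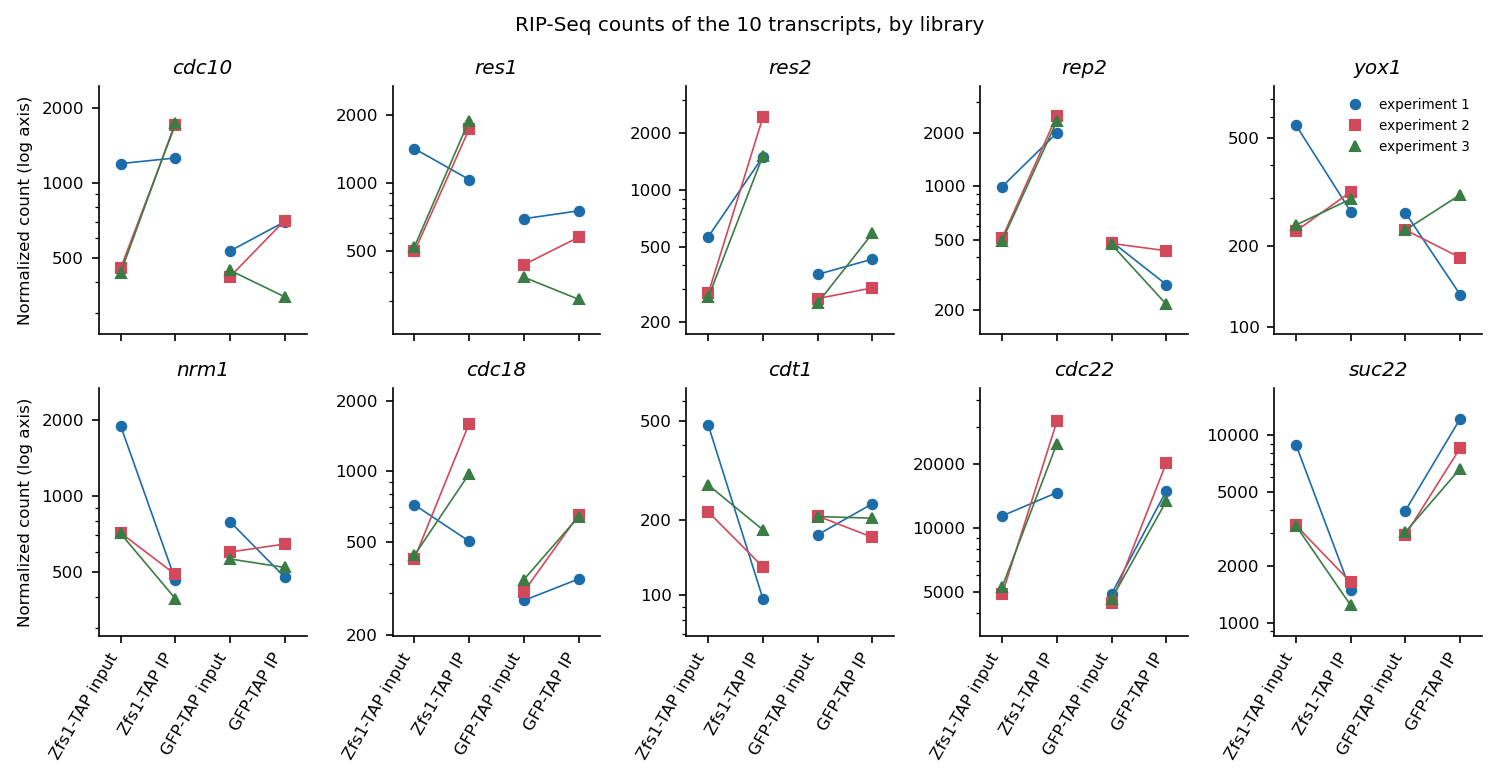
Normalized counts (y axis, log scale) of each of the 10 transcripts in the 12 RIP-Seq libraries. A line joins the input and IP of an experiment and the marker gives the experiment. In cdc10, res2, rep2 and cdc22 every Zfs1-TAP IP lies above every Zfs1-TAP input, and in nrm1, cdt1 and suc22 every one lies below. suc22 rises in the GFP-TAP IPs, from 2937 to 3961 in the inputs to 6625 to 12231. As shares by transcript length, which are not drawn, the Zfs1-TAP IPs and inputs of nrm1 overlapped.

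The mock IP shows what comes down with a TAP-tagged protein that is not known to bind RNA. Among the 10 transcripts it was the ribonucleotide reductase pair that rose in the GFP-TAP IP. Of the 10, 2 were called higher (against 11.1% of 5887 transcripts) and none lower (against 7.30%). At an unadjusted p under 0.05 limma gave 3 higher (cdc18, cdc22 and suc22) and 0 lower, again without a share of all transcripts. cdc22 had 4905, 4459 and 4649 counts in the GFP-TAP inputs and 14950, 20228 and 13376 in the IPs, a log2 ratio of 1.77 ± 0.39 (SE, n = 3, limma, adjusted p = 0.000202). suc22 had 3961, 2937 and 3043 counts in the inputs and 12231, 8543 and 6625 in the IPs, a log2 ratio of 1.43 ± 0.35 (limma, adjusted p = 0.000874). For both, every IP was above every input. Without the experiment as a block suc22 was no longer called (adjusted p = 0.0528), nor was it without experiment 3 (adjusted p = 0.0537). Of all transcripts, 1.99% were called higher without the block and 2.42% without experiment 3.

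The other 8 were not called in the mock IP. Their log2 ratios ran from −0.68 ± 0.37 for rep2 (adjusted p = 0.183, limma), with 489, 477 and 471 counts in the inputs and 280, 434 and 217 in the IPs, to 0.76 ± 0.36 for cdc18 (adjusted p = 0.126), with 280, 305 and 344 counts in the inputs and 346, 649 and 638 in the IPs. In rep2 every mock IP was below every input, and in cdc18 every mock IP was above every input. The transcript of res2 had 357, 266 and 252 counts in the mock inputs and 430, 303 and 588 in the mock IPs, a log2 ratio of 0.56 ± 0.37 (adjusted p = 0.308). The counts of res2 inputs and IPs overlapped in the mock, as did those of cdc10, res1, yox1, nrm1 and cdt1, which had log2 ratios of 0.26, 0.06, −0.30, −0.24 and 0.04.

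**Figure D3:**
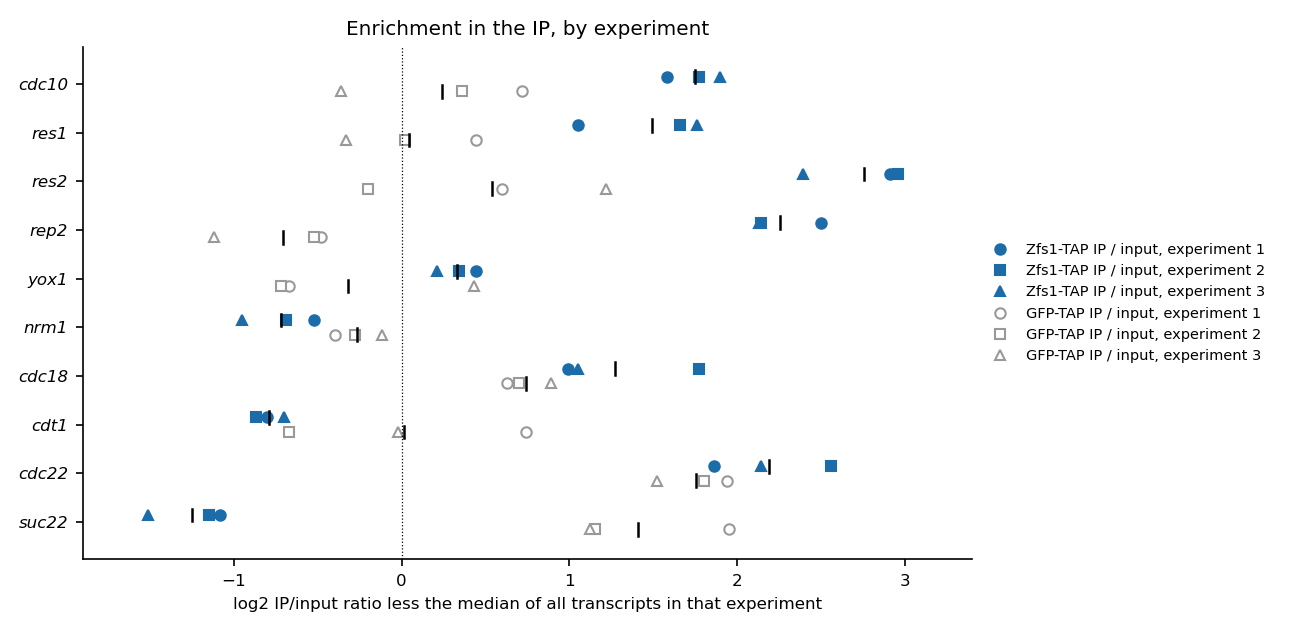
Log2 IP/input ratio less the median of all transcripts in that experiment (x axis) for the 10 transcripts (y axis), with Zfs1-TAP in filled and GFP-TAP in open markers and vertical bars for the mean of 3 experiments. The ranges of the strains overlap only in yox1 and cdc22, and the gap between them is wide in cdc10, res1, res2, rep2 and suc22. For cdc22, Zfs1-TAP ran from 1.86 to 2.56 and GFP-TAP from 1.52 to 1.94.

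A contrast over the 12 libraries tested whether the IP/input ratio differed between Zfs1 and the mock, and it called rep2 and suc22. Of the 10, 1 had a higher ratio with Zfs1 (against 9.86% of 5933 transcripts) and 1 a lower ratio (against 11.3%). rep2 was higher by 2.52 ± 0.73 on the log2 scale, or 5.75-fold (limma, adjusted p = 0.00718), with differences of 1.81, 2.42 and 3.35 in same-numbered experiments. suc22 was lower by a log2 difference of −3.09 ± 0.73 (limma, adjusted p = 0.000662), with −4.21, −2.55 and −2.53. Without experiment 2 or 3 neither was called, at adjusted p-values of 0.222 and 0.471 for rep2 and 0.0540 and 0.296 for suc22. Of all transcripts, these fits called 0.961% higher and 0.776% lower without experiment 2, and 0.642% and 0.625% without experiment 3.

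For cdc22 the difference was −0.00 ± 0.79 (adjusted p = 0.998, limma), and its values of −1.24, 0.52 and 0.71 changed sign between experiments. cdc18, which had similar ratios in both IPs, differed by 0.09 ± 0.75 (adjusted p = 0.943). The differences of res2 (1.77 ± 0.75, adjusted p = 0.0717), cdc10 (1.07 ± 0.73, adjusted p = 0.298) and res1 (1.01 ± 0.73, adjusted p = 0.331) were not called on the counts as deposited. On centred libraries res2 (2.02), cdc10 (1.32), res1 (1.25) and rep2 (2.77) were called higher, 4 of 10 against 20.3% of all transcripts, and suc22 (−2.85) was called lower, 1 of 10 against 26.6%. The same 5 genes were called in the same direction without experiment 1 (against 19.4% of all transcripts higher and 15.3% lower). yox1, nrm1 and cdt1 were called in neither fit.

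RNA-Seq asks whether the levels of these transcripts change when zfs1 is deleted. All changes were small. cdc10, res2, cdc18 and yox1 were called higher in the mutant, 4 of 10 against 30.9% of 5177 transcripts, and none was called lower, against 13.7%, nor at an unadjusted p under 0.05 by limma. Without the filter on low values none of the 4 was called (adjusted p = 0.107, 0.0854, 0.0850 and 0.130, limma), and that fit called 0 of 7018 transcripts. None of the 10 reached a 1.5-fold change, which 4.23% of transcripts did upwards and 2.88% downwards. The median log2 ratio of the 10 was 0.08, against 0.05 over all transcripts.

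For res2, experiments 1 and 2 gave 1524 and 1556 normalized counts with zfs1 and 1902 and 1909 without it. For cdc18 they gave 1559 and 1542 with zfs1 and 1917 and 1924 without it. In both, mutant and wild type libraries did not overlap and the experiments gave nearly the same ratio, with log2 values of 0.32 and 0.29 for res2 and 0.30 and 0.32 for cdc18. Each rose 1.24-fold (log2 0.31 ± 0.06, SE, n = 2, limma, adjusted p = 1.15e-06 for res2 and 1.00e-06 for cdc18).

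cdc10 rose from 2225 and 2330 counts to 2777 and 2750 in the mutant, 1.21-fold (log2 0.28 ± 0.06, limma, adjusted p = 2.54e-06). yox1 rose from 1080 and 1124 to 1268 and 1278 counts (log2 0.21 ± 0.06, adjusted p = 0.00376, limma). It was no longer called when the libraries were rescaled to equal totals (log2 0.10, adjusted p = 0.172) or to equal totals without rRNA (log2 0.12, adjusted p = 0.0609). A fit without the wild type library of experiment 1, which also dropped the block and left 1 wild type library, gave yox1 a log2 ratio of 0.18. Both mutant libraries were above both wild type libraries for each gene. The test had 1 residual degree of freedom per transcript, so limma took its spread almost wholly from other transcripts.

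The other 6 were not called. The counts of rep2 were 3179 and 3245 in wild type libraries and 3136 and 3047 in mutant libraries (log2 −0.06 ± 0.05, adjusted p = 0.425, limma), and both mutant libraries were slightly below both wild type libraries. On centred libraries rep2 was called lower (−0.12, adjusted p = 0.0103), 1 of 10 against 27.8% of all transcripts, while cdc10, res2, cdc18 and yox1 remained called higher, 4 of 10 against 26.3%. nrm1 (2843 and 2995 wild type counts, 3027 and 2949 mutant counts) and suc22 (19166 and 19542, then 19858 and 19024) overlapped between strains. res1, cdt1 and cdc22 had log2 ratios of 0.09, 0.05 and 0.06 (adjusted p = 0.144, 0.533 and 0.481), with both mutant libraries above both wild type libraries in each, and at rescaled totals their signs turned.

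**Figure D4:**
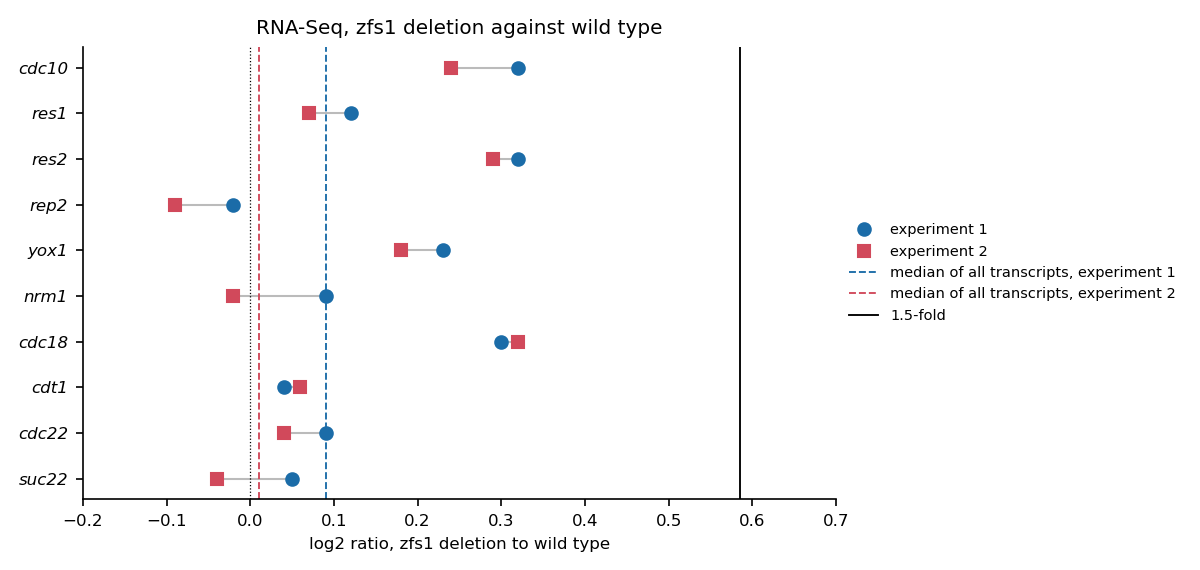
Log2 ratio of the zfs1 deletion to the wild type (x axis) in experiments 1 and 2 for the 10 transcripts (y axis), with dashed lines at the medians of all transcripts (0.09 and 0.01). cdc10, res2, cdc18 and yox1 lie between 0.18 and 0.32, and all 10 lie below the solid line at 1.5-fold.

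The IP and the deletion can be set side by side on centred libraries. Of the 6 transcripts called higher in the Zfs1 IP, 3 (cdc10, res2 and cdc18) were called higher in the mutant, 1 (rep2) was called lower and res1 and cdc22 were not called. Of the same 6, cdc18 (0.34, adjusted p = 0.361) and cdc22 (0.24, adjusted p = 0.495) were not called against the mock IP by limma. Over all transcripts called higher in the Zfs1 IP against input and tested in the mutant, 52.6% of 1510 were called higher in the mutant and 11.9% lower. None of the 3 called lower in the IP (nrm1, cdt1 and suc22) was called in the mutant, where 42.5% of 1867 such transcripts were called lower and 11.1% higher. yox1 was called higher in the mutant with a ratio near the median in the IP. The transcripts with the AU-rich nonamer, rep2 and cdc22, were not among those called higher in the mutant.

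The 6 lists of related genes give the surroundings. They hold 61 different genes besides the 10, with cdt2 and mrc1 in 2 lists, and the counts below are descriptions beside the shares of all transcripts given above. As for the 10, more of them were called on centred libraries. In the Zfs1 IP 9 of the 61 were called higher and 5 lower on the counts as deposited, and 26 higher and 15 lower on centred libraries. Of 13 other MBF target genes, 3 were called higher and 1 lower in the Zfs1 IP, with a median log2 ratio of −0.46 (all transcripts −0.44), and on centred libraries 5 and 5 were. The 3 were mik1, a kinase that holds back mitosis (3.37, adjusted p = 0.000216), ams2, a regulator of histone genes (3.09, adjusted p = 0.00115), and rep1, a transcription factor of the meiotic MBF (2.63, adjusted p = 0.00237), and the 1 lower was dut1, a dUTPase (−3.36, adjusted p = 7.17e-05), all by limma. In the mock IP 4 of the 13 were called higher, ams2 (1.27, adjusted p = 0.00113) among them, and 2 lower, dut1 (−2.04, adjusted p = 0.000482) among them. Of the 13, only mik1 (2.66) was called against the mock IP on the counts as deposited.

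In the mutant, 6 of the 9 other targets tested were called higher (against 30.9% of all transcripts) and none lower, nor at an unadjusted p under 0.05 by limma, with a median of 0.19. cig2, the S phase cyclin (log2 0.64, adjusted p = 9.08e-28), passed 1.5-fold, and the lowest was tos4 (−0.08, adjusted p = 0.220, limma). On centred libraries cig2 (0.57) was not past 1.5-fold, pol1 was no longer called (adjusted p = 0.0583) and tos4 was called lower (−0.15, adjusted p = 0.00134, limma). Of the 4 not tested, dut1, ctp1 and psm3 were listed at 0 in every RNA-Seq library, although the RIP-Seq inputs held between 306 and 2885 counts of them. In all, 200 transcripts with at least 100 counts in each RIP-Seq input were listed at 0 in this way, none of the 10 among them.

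Among the 12 subunits of the origin recognition and MCM complexes, which Cdc18 and Cdt1 bring together at origins, orc5 alone was called higher in the Zfs1 IP (2.30, adjusted p = 0.0166), none was called lower, and mcm7 had the lowest ratio (−1.35, adjusted p = 0.179, limma). On centred libraries orc3, orc5, mcm3 and mcm5 were called higher, 4 of the 12, and orc6 and mcm7 lower, 2 of the 12. In the mutant 5 of the 12 were called higher (mcm2, mcm3, mcm4, mcm5 and orc5), led by mcm5 (0.53, adjusted p = 2.22e-22), and orc1 was the lowest (−0.11, adjusted p = 0.227) and was called lower on centred libraries (−0.17, adjusted p = 0.0258, limma). Of the 5 genes that control Cdt1 and ribonucleotide reductase, none was called in the Zfs1 IP and 1 passed an unadjusted p of 0.05 by limma. This was pcu4, the ubiquitin ligase scaffold, which had the highest ratio (1.68, adjusted p = 0.0934), while cdt2, its substrate receptor for Cdt1, had the lowest (−0.76, adjusted p = 0.446). On centred libraries 2 of the 5 were called higher, pcu4 (1.90, adjusted p = 0.000899) and spd2 (0.88, adjusted p = 0.00267), and none lower by limma. In the mutant 3 of the 5 were called higher, from pcu4 (0.15) and cdt2 (0.23) to spd2 (0.25, adjusted p = 8.40e-06), and the lowest was spd1, an inhibitor of ribonucleotide reductase (−0.03, adjusted p = 0.719). On centred libraries pcu4 was not called there (adjusted p = 0.0643) and spd1 was called lower (−0.09, adjusted p = 0.0342, limma).

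The DNA replication checkpoint, which acts on MBF through the kinase Cds1, had 2 of 10 genes called higher in the Zfs1 IP, and 6 higher and 1 lower on centred libraries. The 2 were crb2, a checkpoint mediator (3.17, adjusted p = 0.000880), and hus1, a subunit of the checkpoint clamp (3.02, adjusted p = 0.000496), and both were called against the mock as well (3.15 and 2.31). In the mutant crb2 (0.63), cds1 (0.43) and hus1 (0.38) were called higher of 8 tested, of which crb2 passed 1.5-fold, and the lowest was rad9 (−0.08, adjusted p = 0.353, limma). On centred libraries crb2 (0.57) was not past 1.5-fold, and rad9 (−0.15, adjusted p = 0.0359) and rad17 (−0.12, adjusted p = 0.0243) were called lower.

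M/G1 genes are transcribed just before the MBF targets, and this list also holds their factors. All 14 were called higher in the mutant, from imp2 (0.13, adjusted p = 0.0335) to adg2 (0.63, adjusted p = 2.80e-21), the only one past 1.5-fold, with a median log2 ratio of 0.33. On centred libraries 13 of the 14 were called, and adg2 (0.57) was not past 1.5-fold. In the Zfs1 IP 2 of the 14 were called higher, slp1, an activator of the anaphase-promoting complex (3.56, adjusted p = 0.000153), and mbx1, a MADS-box factor (3.36, adjusted p = 0.000160), and none lower, with adg1 at the low end (−1.18, adjusted p = 0.248, limma). On centred libraries 6 were called higher and 3 lower, adg1 among the latter (−0.96, adjusted p = 0.00302).

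The histone genes of S phase leaned the other way in the IP. Of 9, 4 were called lower (hht1 −2.45, hht2 −2.38, hta1 −2.37 and hhf3 −2.00) and 1 higher (hhf2 2.21, adjusted p = 0.0265, limma), and on centred libraries 5 were called lower and 3 higher. In the mock IP 5 of the 9 were called lower. In the mutant 4 of 7 tested were called higher, with hht3 at 0.68 past 1.5-fold (0.61 on centred libraries), and 1 lower (hht2, −0.16, adjusted p = 0.0157). The copies of H3 and H4 are near-identical, so reads could be shared among them and the value of a single copy is uncertain.

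**Figure D5:**
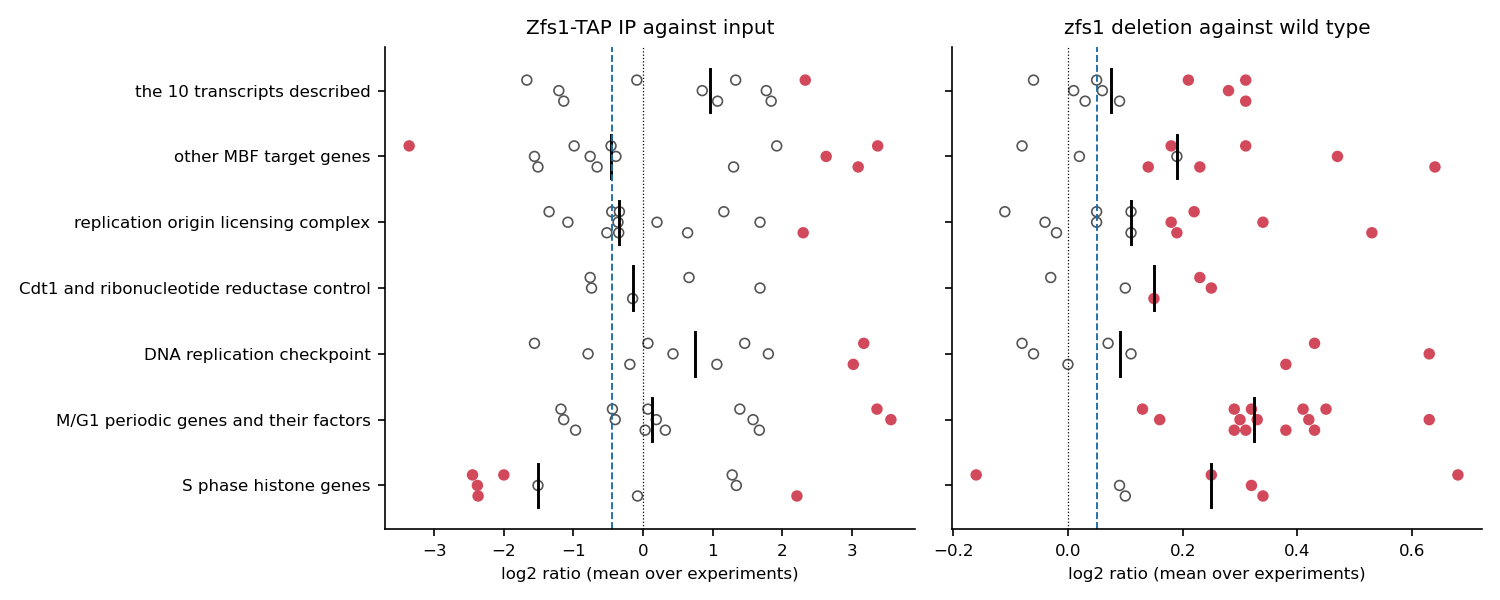
Mean log2 ratio (x axis) of the 10 transcripts and of the members of each list (y axis) in the Zfs1 IP against input and in the zfs1 deletion against the wild type. Filled markers were called at an adjusted p under 0.05, black bars are medians and the dashed line is the median of all transcripts. The 14 M/G1 genes all lie right of that line in the deletion, at 0.13 to 0.63, while the 10 transcripts run from −0.06 to 0.31.

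Against the mock IP, 8 of the 61 list genes were called higher and none lower on the counts as deposited, and 19 higher and 14 lower on centred libraries. The highest and the lowest log2 difference of each list were 2.66 (mik1) and −1.84 (ssb1) for the other MBF targets, 2.08 (orc5) and −1.46 (mcm7) for origin licensing, and 1.37 (pcu4) and −1.66 (ddb1) for the control of Cdt1 and ribonucleotide reductase. They were 3.15 (crb2) and −2.09 (rad1) for the checkpoint, 3.27 (mbx1) and −1.83 (adg1) for M/G1 and 3.29 (hhf2) and −1.77 (hta1) for the histones. On the counts as deposited limma called none of these lowest values, nor pcu4 (adjusted p = 0.164). On centred libraries each of the 6 lowest was called lower, from ssb1 (adjusted p = 0.000886) to mcm7 (adjusted p = 0.0110), and pcu4 was called higher (adjusted p = 0.00693).

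Over the 8 ratios of the study (3 Zfs1, 3 mock and 2 deletion, each centred on its median over 5083 transcripts tested throughout), cdc10 and res1 were the most alike pair of the 10, at a Euclidean distance of 0.76. Both had nearer transcripts outside the 10, with pdc1 (0.51) nearest to cdc10 and tps2 (0.43) nearest to res1. The transcripts nearest to res2 in the whole table were those of the GTPase mss1 (0.90), the transporter SPAC5D6.04 (0.96) and the dynactin subunit ssm4 (1.08). Those nearest to suc22 were SPAC806.02c (0.34), ccr4 (0.36) and sfh1 (0.43). No other of the 10 was among these.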

How the data were processed

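RIP-Seq and RNA-Seq were 100 bp paired-end, strand-specific and depleted of rRNA. The authors counted reads per PomBase transcript with RSEM 1.1.19 and Bowtie 0.12.7 in strand-specific mode and normalized them with edgeR. The deposited values, a normalized signal in count units that is not whole, came in one table per assay, normalized apart, and whole reads could not be recovered, so no count model was used. Depth per library is therefore unknown and no counting intervals are given.

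From these, log2(value + 1) was tested with limma 3.58.1 (R 4.3.3; eBayes with trend) over all transcripts whose mean reached 1 CPM. The experiment was a block, and p-values were adjusted by Benjamini-Hochberg. Called means an adjusted p under 0.05, and upregulated or downregulated also 1.5-fold. Fold changes on this scale understate those of low transcripts. IP and input shared an extract, which pairs them (correlation of deviations 0.093 to 0.485), and the study's methods pair the RNA-Seq samples (−0.066). The code was tested on simulated data. 1 list gene is not reported here. The 10 genes, the lists and the tests were chosen with earlier results of these data known. All 10 are named in each comparison, with list genes called at 1.5-fold and the highest and lowest of each list in the IP and deletion. Alternatives were other pseudocounts, filters and scalings, no block, and leaving out libraries, which in the RNA-Seq also dropped the block. RefSeq ASM294v3 matched 6823 of 7018 transcripts. Motif windows follow its annotated starts. Genes that overlap the 10 lie on the other strand. Figures were drawn with matplotlib 3.10.9.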

Additional observations from a re-analysis of the deposited data

Results flagged for a closer look

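Enrichment differed between the Zfs1-TAP and the GFP-TAP strain, by the contrast of the IP/input ratios over 12 libraries (limma, adjusted p under 0.05), for 2 of the 10 transcripts. rep2 (SPBC2F12.11c) differed by 2.52 on the log2 scale, with all 3 Zfs1 ratios above and all 3 mock ratios below 0. suc22 (SPBC25D12.04) differed by −3.09, with all 3 Zfs1 ratios below and all 3 mock ratios above 0. The rRNA share of the inputs of experiment 1 moved with the size of the ratios, and its part was not tested. Without experiment 1, rep2 and suc22 were called in the same direction, and neither was called without experiment 2 (adjusted p = 0.222 and 0.0540, limma), without experiment 3 (0.471 and 0.296) or with no filter on low values. Of all transcripts, 19.4% were called higher and 15.3% lower without experiment 1, 0.961% and 0.776% without experiment 2, and 0.642% and 0.625% without experiment 3. With no filter the shares were 0.128% and 0.0427%.

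Among the 61 list genes the same contrast called 8 on the counts as deposited, all higher in the Zfs1 IP, and 19 higher and 14 lower on centred libraries. The 8 were hhf2 (SPBC8D2.03c) at 3.29, mbx1 (SPBC19G7.06) at 3.27, crb2 (SPBC342.05) at 3.15, slp1 (SPAC821.08c) at 2.83, mik1 (SPBC660.14) at 2.66, hus1 (SPAC20G4.04c) at 2.31, hht3 (SPBC1105.11c) at 2.28 and orc5 (SPBC646.14c) at 2.08.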

How the results depend on the processing

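In the Zfs1 IP, where 1 was called higher and 0 lower, equal totals gave 4 higher, equal totals without rRNA 6 and 3 lower, centring 6 and 3, no replicate block 3 and 1, no filter 0 higher, and leaving out an experiment 0 to 6 higher and 0 to 3 lower. In the mock IP (2 and 0), no filter gave 0 higher, no replicate block 1, equal totals without rRNA 1 lower, and leaving out an experiment 1 to 2 higher. In the contrast (1 and 1), no filter gave 0 and 0, equal totals 3 higher, equal totals without rRNA 4, centring 4, and leaving out an experiment 0 to 4 higher and 0 to 1 lower. Of all transcripts, 0.128% were called higher with no filter, 17.1% at equal totals, 24.2% at equal totals without rRNA and 20.3% centred. Leaving out experiment 1 gave 19.4% higher and 15.3% lower, experiment 2 0.961% and 0.776%, and experiment 3 0.642% and 0.625%. In the mutant (4 and 0), no filter gave 0 higher, equal totals 3 and 1 lower (rep2), equal totals without rRNA 3 and 2 lower (rep2 and suc22), and centring 4 and 1 lower (rep2). Of all transcripts, 18.9% were called higher and 31.0% lower at equal totals, 22.3% and 32.5% at equal totals without rRNA, and 26.3% and 27.8% centred. Without the filter 7018 transcripts entered the fit, and it called 0 of them in the Zfs1 IP and in the mutant. Over all transcripts, equal totals moved the split of higher and lower calls from 569 and 631 to 950 and 191 in the Zfs1 IP, from 651 and 430 to 174 and 313 in the mock IP, from 585 and 671 to 1016 and 103 in the contrast and from 1600 and 710 to 981 and 1606 in the mutant, with shifts of the median log2 ratio of 0.67, −0.26, 0.93 and −0.11. Signs turned only for transcripts not called in the main test. With its sign turned, suc22 was called lower in the mutant at equal totals without rRNA (adjusted p = 0.0256, limma). In the Zfs1 IP yox1 was 0.58 at equal totals, 0.14 centred and −0.37 to 0.40 with an experiment left out. In the mock IP cdc10 was −0.19 at equal totals without rRNA, res1 −0.19 and −0.39 at the equal totals with and without rRNA and −0.11 to 0.26 with an experiment left out, cdt1 −0.22 and −0.42 at those totals and −0.15 to 0.20 with an experiment left out, and yox1 −0.67 to 0.05 with an experiment left out. In the contrast, with an experiment left out, yox1 was −0.09 to 0.38 and cdc18 −0.28 to 0.55, and nrm1 0.04 at equal totals. In the mutant, at equal totals, equal totals without rRNA and centring, nrm1 was −0.07, −0.06 and −0.03, cdt1 −0.06, −0.04 and −0.01, and suc22 −0.10, −0.09 and −0.06, cdc22 was −0.05 and −0.03 at the equal totals, res1 −0.01 at equal totals, and suc22 −0.01 and −0.02 without the wild type or the mutant library of experiment 1. The cause was not tested. The AU-rich motif as a pentamer gave 10 transcripts for 2, and the MCB gave 5 genes for 3 at 1000 bases, and 5 and 7 as a pentamer at 250 and 1000 bases.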
